A study of Mus musculus with 3 samples.

Results

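Antioxidant and glutathione defence genes were examined in the mouse retina at postnatal day 10. The members were taken by gene symbol: glutathione peroxidases, peroxiredoxins, glutathione transferases, superoxide dismutases, catalase, thioredoxins, glutaredoxin, the enzymes that make and recycle glutathione, metallothioneins, haem oxygenases, ferritin, and the regulators Nrf2 (Nfe2l2) and Keap1. This gave 83 of 12422 probe sets that are not array controls, and 63 of 8251 named genes. A probe set is a group of short probes on the array with 1 deposited signal. The symbol rule uses no measured value. A further 5 probe sets carried a matching symbol together with a second symbol and were left out, so Prdx1, Glrx3 and Ftl1 are not analysed here.

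The 3 samples form 1 group of wild-type mice of mixed 129/SvEv and C57BL/6 background, the littermates of Rp1-/- mice whose samples are not analysed here. Each sample pooled neural retinas from 3 to 4 mice, and collection took place from 1 to 2 pm. RNA of a whole retina averages over all its cell types, so that fewer cells of a type and less RNA per cell cannot be told apart. Rp1 stands in the titles of pools 2 and 3 but not of pool 1. The grouping follows the descriptions, which call all 3 wild type. With 1 group there is no comparison between conditions and no test, and the design asks which of these genes could be measured and how closely the pools agreed.

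Retinal neurons use much oxygen, and photoreceptor membranes are rich in easily oxidised fatty acids. Superoxide dismutases turn superoxide into hydrogen peroxide, which catalase, glutathione peroxidases and peroxiredoxins remove. Glutathione and thioredoxin supply the electrons to glutathione peroxidases and peroxiredoxins, and are themselves recharged by reductases with NADPH. When electrophiles modify Keap1, the transcription factor Nrf2 is spared from degradation and raises many of these genes through a short DNA motif, the antioxidant response element.

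To tell measured genes from dim ones, each array was given a background limit, the 90th percentile of the signals of 27 probe sets. These belong to 21 genes of tissues such as liver, pancreas and sperm. Pools 1, 2 and 3 had limits of 487.3, 614.8 and 435.9, with a mean of 512.7. The limit rests on few probe sets and was highest in pool 2. A longer list of such genes, chosen after the data were seen, gave lower limits of 382.9, 403.4 and 323.8. A member under the limit is called not above background, which does not mean silent. Probe sets have no common scale, so each gene was compared only with itself between pools. The retina's identity was borne out by rod markers, with 9 of 9 probe sets of 7 rod genes above background on all arrays.

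Of the 83 member probe sets, 29 (34.9%) exceeded the limit on all 3 arrays, beside 24.2% of all 12422 probe sets. On no array did 41 (49.4%) exceed it, beside 62.6% of all. With each gene represented by its brightest probe set, 25 of 63 member genes (39.7%) were above background on all arrays, beside 30% of all named genes. With the longer list 34 member probe sets passed, beside 32.3% of all. The 5 gained were those of Gclc, Txndc9, Txnip, Txnl1 and Glrx, and none was lost. A limit at the 75th percentile of the shorter list let 45 member sets pass (54.2%), beside 42.8% of all. These shares describe the 3 arrays and were not tested.

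**Figure D1:**
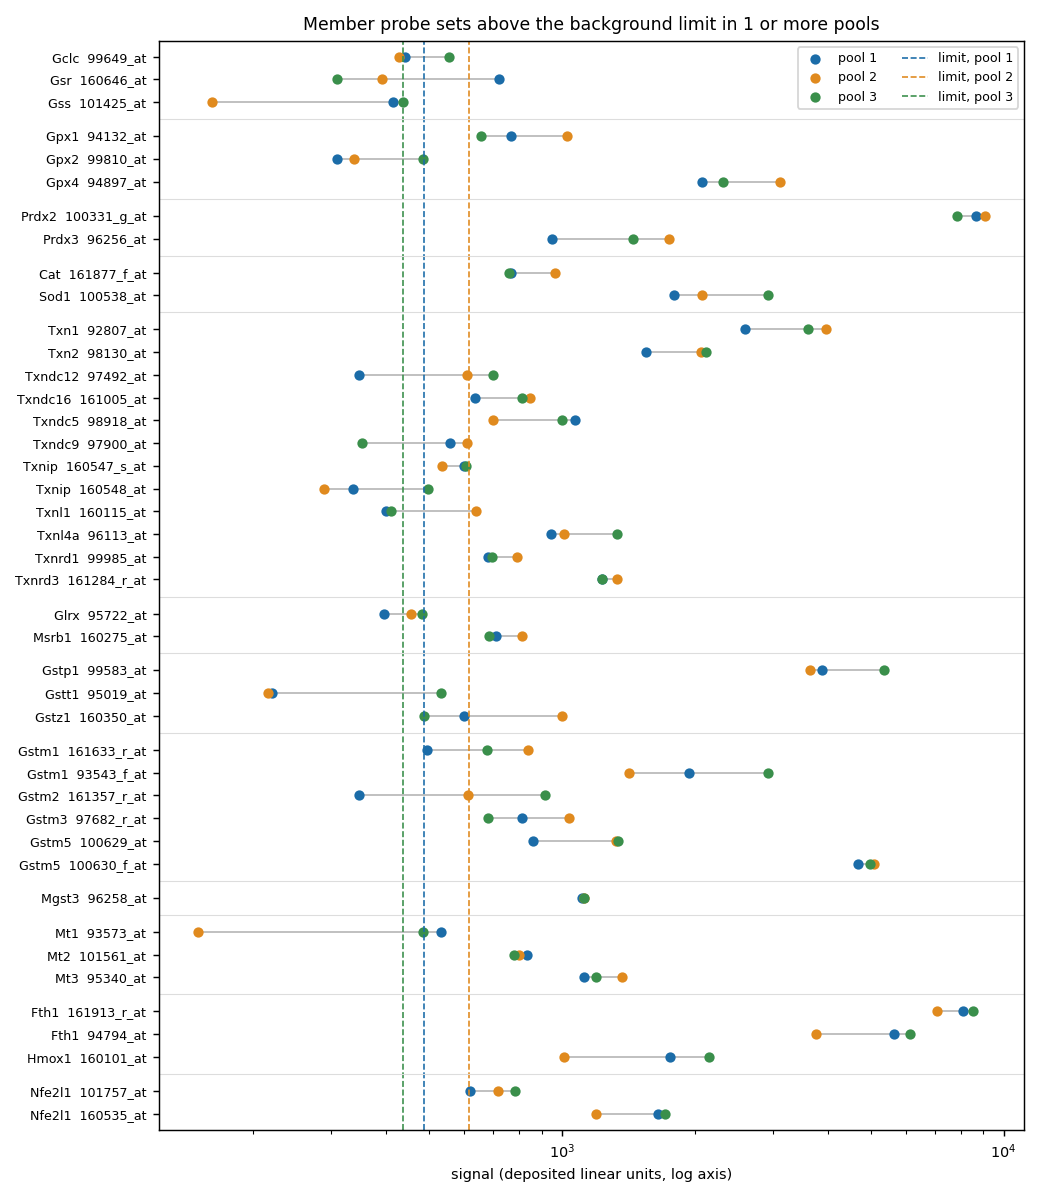
Signal of the 42 member probe sets above background in 1 or more pools, in deposited units on a log axis, grouped by role. Points are pools, and dashed lines are the background limits of 487.3, 614.8 and 435.9 in pools 1, 2 and 3. Points of Mgst3, Mt2 and the brighter Gstm5 set nearly coincide, whereas those of Hmox1 lie apart, with pool 2 at 1012.9.

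The enzymes that make and recycle glutathione were dim. None of the 4 genes was above background in every pool. Gclc, the catalytic subunit of the ligase that limits glutathione synthesis, read 441.4, 428.6 and 554.9 in pools 1, 2 and 3, the order used for every gene. It passed the limit only in pool 3 but did so in all pools with the longer list. Gclm, the modifier subunit of the same ligase, read 295, 262.9 and 281.7, and no pool was above background. Gsr, the reductase that regenerates glutathione, read 720.7, 390.8 and 310.1. Only pool 1 was above background for Gsr, at least 1.65-fold higher than pool 3. Gss, glutathione synthetase, read 414.5, 161.4 and 436.1 on one set, which barely passed the limit in pool 3 alone. Its other set read 182.6, 536.7 and 390.3, above background in no pool.

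Glutathione peroxidases use glutathione to reduce peroxides. Gpx4, which protects membranes by reducing oxidised phospholipids, read 2077, 3123 and 2318 (2506 ± 548, SD, n = 3). Gpx1, the widespread cytosolic enzyme, read 766.5, 1026 and 657.5 (816.7 ± 189.3, SD, n = 3). Both were above background in every pool and highest in pool 2. Gpx2, best known from the gut lining, read 308.9, 338.2 and 483.5, above background only in pool 3. The secreted Gpx3, the epididymal Gpx5 and Gpx7, an enzyme of the endoplasmic reticulum, were above background in no pool, with signals from 46.4 to 536.4.

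Peroxiredoxins remove hydrogen peroxide with a reactive cysteine. Prdx2, a cytosolic form abundant in neurons and red blood cells, read 8671, 9079 and 7851 on its bright probe set, a 1.16-fold range. Globin, the main transcript of red blood cells, read 19101, 3410 and 12646 for Hba-a1, and its part in the Prdx2 signal was not tested. Prdx2 has 2 other probe sets, which were not above background in any pool. One read 355.5, 332.6 and 338.8, and the other stayed between 7.7 and 73.7. The bright set has the suffix _g_at, which marks probes common to a group of related transcripts. Prdx3, the mitochondrial peroxiredoxin, read 950, 1747 and 1451, lowest in pool 1, a 1.84-fold range. Prdx4, of the endoplasmic reticulum, read 297.4, 491.1 and 300, not above background in any pool.

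Sod1, the cytosolic copper and zinc superoxide dismutase, read 1798, 2072 and 2928 (2266 ± 589, SD, n = 3). Sod2, the mitochondrial manganese enzyme, read 352.7, 316.8 and 218.5, and Sod3, the extracellular enzyme, read 324, 355.1 and 82.5. Neither was above background in any pool. Catalase, the peroxisomal enzyme, was above background on one of its probe sets, a set that can match related sequences (_f_at), with 767.4, 964.8 and 758.6. Its plain set read 95.6, 166.8 and 143.5, not above background in any pool. Only one of the Cat sets thus placed the gene above background.

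The thioredoxin system had 15 probe sets for 13 genes, and 7 of the genes were above background on all arrays by their brightest set. Txn1, cytosolic thioredoxin, read 2603, 3954 and 3599, and Txn2, its mitochondrial form, read 1549, 2064 and 2120.1. Both were lowest in pool 1, with ranges of 1.52-fold and 1.37-fold. Txnrd1, the cytosolic reductase that recharges thioredoxin, read 680.1, 790.2 and 693.2, a 1.16-fold range. The mitochondrial reductase Txnrd2 read 186.8, 171.6 and 121.1, not above background in any pool. Txnrd3, a reductase known mainly from testis, read 1232, 1330.2 and 1231 on one probe set, and from 31.9 to 228.9 on the other. Both Txnrd3 sets carry the suffix _r_at, for sets built with relaxed probe rules. Txnip, which binds thioredoxin and inhibits it, read 600.4, 535.9 and 605.4 on one set and 337.1, 289.2 and 497 on the other. In pool 3 both Txnip sets were above background, in pool 1 only the first, and in pool 2 neither.

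Among the remaining proteins with a thioredoxin fold, Txndc5, a disulfide isomerase of the endoplasmic reticulum, read 1068, 699.5 and 1003, lowest in pool 2. Txndc12, another protein of that compartment, read 347.9, 609.5 and 698.2. Only pool 3 was above background for Txndc12, at least 1.43-fold higher than pool 1. Txndc16 read 634.9, 848.5 and 814, and Txnl4a, a component of the spliceosome and no antioxidant enzyme, read 943.1, 1010.3 and 1336. Both of these were lowest in pool 1 and above background throughout. Txnl1, which associates with the proteasome, read 400.7, 640.5 and 411.3, above background only in pool 2. Txndc9 read 556.9, 609.3 and 352.3, above background only in pool 1, and Txndc17 read 285.5, 478.5 and 277.3, above it in none. Glrx, glutaredoxin, which uses glutathione to release proteins from mixed disulfides, read 395.3, 454.4 and 481.9. It was above background only in pool 3 by the shorter list. Msrb1, a selenoprotein that repairs oxidised methionine, read 708.8, 812.9 and 682.6, above background in each pool with a 1.19-fold range.

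Glutathione transferases couple glutathione to reactive compounds. Of 10 genes of the alpha, kappa, omega, pi, theta and zeta classes, 2 were above background on all arrays. Gstp1, the pi class enzyme, read 3879, 3645 and 5362 (4295 ± 931, SD, n = 3). Gstz1, a zeta class enzyme of tyrosine breakdown, read 600.7, 998.6 and 487.2, a 2.05-fold range with pool 2 the highest. Gstt1 read 221.1, 216 and 531.8, above background only in pool 3. The other 7, Gsta1, Gsta2, Gsta3, Gsta4, Gstk1, Gsto1 and Gstt2, were above background in no pool, with signals from 16.7 to 460.1.

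The mu class had 12 probe sets for 5 genes, 3 of which were above background on all arrays by their brightest set. Gstm5 was the closest between pools on one set, with 4682, 5082 and 4987, a 1.09-fold range. A second Gstm5 set read 862.3, 1325 and 1339, a 1.55-fold range lowest in pool 1, and the other 2 stayed below background, from 56.1 to 344.6. For Gstm1 the bright sets went different ways. One read 1936, 1419 and 2929, highest in pool 3 and lowest in pool 2, a 2.06-fold range. The other read 495.4, 838.6 and 676.4, highest in pool 2 and lowest in pool 1, a 1.69-fold range. Gstm3 read 811.3, 1037 and 681 on one set and 299.1, 458.1 and 253.2 on the other, which was above background in no pool. Gstm2 read 346.5, 613.5 and 914.5 on one set, above background only in pool 3, at least 1.88-fold higher than pool 1. The other Gstm2 set read 57, 192.7 and 89.8, and both Gstm6 sets lay between 12 and 121.8. Mu class transcripts are similar in sequence, and 8 of these 12 sets carry an _f_at or _r_at suffix, so how much each set owes to its neighbours was not tested.

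Microsomal transferases act on lipids in membranes. Mgst3 was the closest of the member probe sets above the mean limit, at 1112, 1121 and 1122 in pools 1, 2 and 3 (1118 ± 5.60, SD, n = 3), a 1.01-fold range. A second Mgst3 set read only 19.1, 11.2 and 45.1. Mgst1 and Mgst2 were above background in no pool, with signals from 17.3 to 222.

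**Figure D2:**
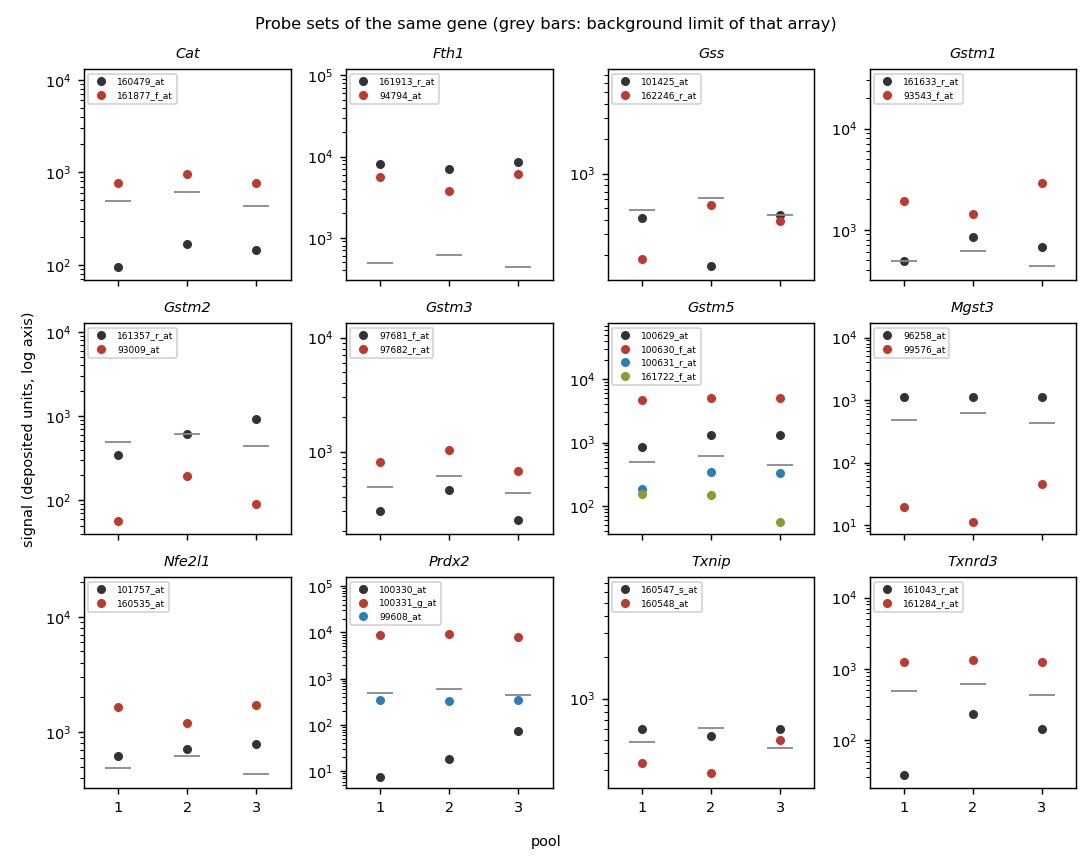
Signals of probe sets of the same gene in pools 1 to 3, for the 12 genes with several sets of which at least 1 was above background in some pool. Grey bars give the limit of each array, and signal is in deposited units on a log axis. The sets of Prdx2, Mgst3, Cat and Txnrd3 lie on both sides of the limit, those of Gstm1 differ in the order of the pools, and both sets of Fth1 lie far above the limit.

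Several probe sets were available for 17 member genes, 37 sets in all. In 6 genes 1 set or more was above background on all arrays and another on none: Cat, Gstm3, Gstm5, Mgst3, Prdx2 and Txnrd3. In 4 genes, Fth1, Gstm1, Gstm5 and Nfe2l1, 2 sets were above background throughout. Of these 4, Fth1 had the same highest and the same lowest pool on both bright sets, Nfe2l1 only the same highest and Gstm5 only the same lowest, and Gstm1 neither.

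Metallothioneins are small cysteine-rich proteins that bind zinc and copper, and metals raise Mt1 and Mt2 through metal response elements in their promoters. Mt1 read 532.9, 150.3 and 485.3. It was above background in pools 1 and 3 and not in pool 2, whose limit was itself above the other readings, so no fold is given. Mt2, its neighbour on the chromosome, read 833.4, 798.7 and 779.5 (803.9 ± 27.3, SD, n = 3), a 1.07-fold range. How far Mt1 in pool 2 differed from pools 1 and 3 thus could not be measured, whereas the Mt2 readings lay close together. Mt3, the form of the brain, read 1122, 1371 and 1197, a 1.22-fold range, and Mt4, a form of squamous epithelia, read from 32.2 to 49.6.

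The promoters of Mt1 and Mt2 are shown because these neighbours are the members best known for control by metals. The 250 bases before each RefSeq start were searched for the core of the metal response element, TGCACNC or TGCGCNC, on both strands, and capitals mark the matches. They lie on the forward strand of GRCm38.p6, at chr8:94178839-94179088 for Mt1 and chr8:94172368-94172617 for Mt2.
Mt1: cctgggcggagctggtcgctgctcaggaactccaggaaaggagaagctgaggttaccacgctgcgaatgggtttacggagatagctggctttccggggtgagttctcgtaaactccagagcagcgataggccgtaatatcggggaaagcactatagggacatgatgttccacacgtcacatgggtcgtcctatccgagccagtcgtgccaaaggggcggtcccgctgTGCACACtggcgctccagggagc
Mt2: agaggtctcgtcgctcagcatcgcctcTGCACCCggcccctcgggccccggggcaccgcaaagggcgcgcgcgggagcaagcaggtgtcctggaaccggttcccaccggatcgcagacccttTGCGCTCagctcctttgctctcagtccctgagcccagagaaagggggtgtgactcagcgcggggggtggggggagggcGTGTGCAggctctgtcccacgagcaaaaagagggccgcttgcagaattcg

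The Mt1 window held 1 match and the Mt2 window 3. In the full 300 bases of the table, which run past the start, Mt1 had 3 matches, Mt2 had 4 and Mt3 and Mt4 had 1 each. Of all 32851 windows of 300 bases in the table, 1.97% held 3 or more. A match to these letters is a description of the sequence and not a measured binding site.

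Haem oxygenases open the haem ring and release its iron, and ferritin stores iron in a form that cannot feed radical reactions. Hmox1, the inducible oxygenase and a widely used marker of oxidative stress, read 1752, 1012.9 and 2149, a 2.12-fold range. Fth1, the ferritin heavy chain, read 5649, 3769 and 6132 on one probe set, a 1.63-fold range, and 8099, 7058 and 8507 on the other, a 1.21-fold range. All 3 sets were above background in each pool, highest in pool 3 and lowest in pool 2. Quantile normalization placed the first Fth1 set highest in pool 1 instead, with pool 2 still lowest. Hmox2, the constitutive oxygenase, read 179.8, 247.6 and 232.7, not above background in any pool.

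**Figure D3:**
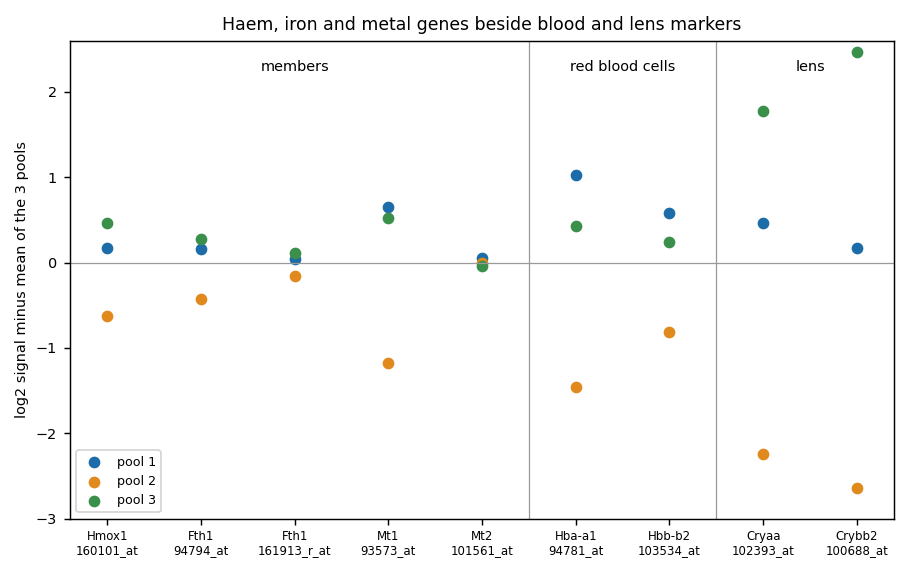
Log2 signal minus its mean over the 3 pools for haem, iron and metal genes, 2 globin genes and 2 lens crystallins, which were chosen after their values were seen. Points are pools. Pool 2 is the lowest point for Hmox1 and both Fth1 sets, as it is for Hba-a1, Hbb-b2, Cryaa and the plotted Crybb2 set, and the Mt1 point of pool 2 is not above background. A Crybb2 set that is not plotted read 1202.5, 1332.7 and 929.8, lowest in pool 3.

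Markers of blood and lens were both lowest in pool 2 in sum, but blood was highest in pool 1 and lens in pool 3. The 7 probe sets of the 6 measured red blood cell genes summed to 22317, 4781 and 15410.5 in pools 1, 2 and 3, and 6 of the 7 were lowest in pool 2. Only Hba-a1 and Hbb-b2 of that list were above background on all arrays, and Alas2, Epb42, Klf1 and Slc4a1, the other red cell markers, were above it on none. Lens sets summed to 272019, 47166 and 487712, and 15 of 18 were lowest in pool 2. Their part in the pattern of Hmox1, Fth1 and the brighter Gstm1 set was not tested.

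Nrf2, Keap1, Nqo1 and Nfe2l3 were above background in no pool. Nfe2l2, which encodes Nrf2, read 366.7, 364.1 and 362.1, the closest readings among members below the mean limit. Keap1, the adaptor that marks Nrf2 for degradation, read 98.1, 60.3 and 37.2. Nqo1, a quinone reductase and classical Nrf2 target, read from 87.9 to 222.3 on its 2 sets, and Nfe2l3 from 3 to 122.4. Nfe2l1, a relative of Nrf2 that controls proteasome genes, was the only regulator here above background in every pool. It read 1646, 1196 and 1712 on one set and 619.2, 716.6 and 784.4 on the other, both highest in pool 3 but with different lowest pools. Msr1 matched the symbol pattern but encodes a scavenger receptor of macrophages, and its sets read from 14.4 to 141.2. Of 12 measured microglia and leukocyte genes, 10 were above background on no array. By probe set these were 17 of 19, beside 62.6% of all probe sets. C1qc read 605.8, 450.9 and 648.9, above background in pools 1 and 3. Cx3cr1 read 452.1, 536.3 and 439.3, above background only in pool 3.

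The antioxidant response element core TGACNNNGC was searched on both strands in the 250 bases before each start. RefSeq windows were at hand for 54 of the 63 member genes, 74 windows in all because some genes have several starts. A match was found in 9 windows (12.2%), each of a different gene, beside 10.2% of all 32851 windows, so the share among members lay near that of all genes. The matches are shown with up to 16 flanking bases on the strand of the gene, since they name the members with this motif next to the start. Capitals mark the match, which reads GCNNNGTCA where the core lies on the opposite strand.
Nfe2l2 (chr2:75704879-75704913, minus strand): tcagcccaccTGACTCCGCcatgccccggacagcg
Gclm (chr3:122245407-122245447, plus strand): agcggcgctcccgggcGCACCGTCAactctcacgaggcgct
Txnrd1 (chr10:82859098-82859138, plus strand): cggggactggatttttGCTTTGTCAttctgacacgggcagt
Gstm5 (chr3:107895796-107895836, plus strand): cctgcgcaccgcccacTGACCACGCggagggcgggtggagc
Gsta3 (chr1:21240448-21240488, plus strand): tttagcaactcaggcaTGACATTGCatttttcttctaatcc
Mgst1 (chr6:138140455-138140495, plus strand): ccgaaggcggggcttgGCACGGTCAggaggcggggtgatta
Mt2 (chr8:94172523-94172563, plus strand): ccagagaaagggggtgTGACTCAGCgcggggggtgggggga
Sod1 (chr16:90220690-90220730, plus strand): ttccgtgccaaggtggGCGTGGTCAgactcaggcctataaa
Txndc5 (chr13:38528028-38528068, minus strand): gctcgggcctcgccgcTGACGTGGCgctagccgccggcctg

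These 9 genes did not share a pattern of signal. Txnrd1, Gstm5, Mt2, Sod1 and Txndc5 were above background in all pools, whereas Nfe2l2, Gclm, Gsta3 and Mgst1 were in none. Sod1 was lowest in pool 1 and Txndc5 in pool 2, whereas the Mt2 readings spanned only 1.07-fold. The Gclm match overlaps a match to the metal response core, which 23% of member windows and 21.4% of all windows held.

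Other genes of the same chemistry were taken from a list of 53, of which 41 had a probe set with 1 symbol. With each gene represented by the set that passed on the most arrays, 14 genes passed the limit on all arrays and 22 passed it on none. By their brightest set, 30% of all named genes passed it on all arrays. Of the 53 probe sets of the 41 genes, 14 passed on all arrays, beside 24.2% of all probe sets. On no array did 33 of the 53 pass, beside 62.6% of all. Idh1, Me1 and Pgd, enzymes that supply NADPH to the reductases, were among the 14 genes, as were the enzymes Taldo1 and Tkt. Idh1 read 677.7, 1157 and 684.3, and Me1 read 739.7, 837.3 and 756.9. Pgd read 1194, 1059 and 1248, and Taldo1 read 873.3, 1182 and 873. Tkt, transketolase, read 1559, 1298 and 2724, a 2.10-fold range and the widest of these 5 enzymes. Idh2 and Nnt, NADPH enzymes also on the list, were not among the 14 genes. Idh2 read 714, 502.9 and 579, above background in pools 1 and 3 only. Nnt read 276.1, 184.1 and 126.7, above background in no pool. Sqstm1, an autophagy receptor that binds Keap1, read 1235, 1009 and 2364, a 2.34-fold range. Cul3, the ubiquitin ligase scaffold that works with Keap1, read 2072, 1760 and 1528. Bach1, a repressor of Hmox1, read 867.3, 601.2 and 362.7 on its brighter set. Only pool 1 was above background for Bach1, at least 1.99-fold higher than pool 3. Mafg, a partner of Nrf2 on DNA, read 393.3, 476 and 439.4 on the brighter of its sets, above background only in pool 3.

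Iron uptake and its control were represented by Tfrc, the transferrin receptor, at 3268, 1827 and 2611 on its bright set, and by Ireb2, an iron-responsive regulator, at 537.3, 864.9 and 480.4. The bright Tfrc set was lowest in pool 2, as Fth1 and Hmox1 were, and Ireb2 was highest there. The other Tfrc set read 359.1, 296 and 227.2, lowest in pool 3. Aco1, also on the list, read 97.5, 256.2 and 116.1. Neither that Tfrc set nor Aco1 was above background in any pool. Slc3a2, the heavy chain of the cystine transporter, read 2557, 1792 and 3127, while its partner Slc7a11 read from 12.1 to 139.4, not above background in any pool. Of the remaining genes above background throughout, Park7, a sensor of oxidation, read 2260.3, 2479 and 2843 and Sesn1 read 1277, 1488 and 1131. Atox1, a copper chaperone, read 1638, 1936 and 2201, and Selenot, a selenoprotein, read 3866, 3645 and 5845. Of the 14, Sqstm1, Tkt, Slc3a2, Selenot and Pgd shared with Hmox1 and Fth1 the order of highest in pool 3 and lowest in pool 2, which 6 of 29 member sets and 16.7% of all sets above background on all arrays had.

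**Figure D4:**
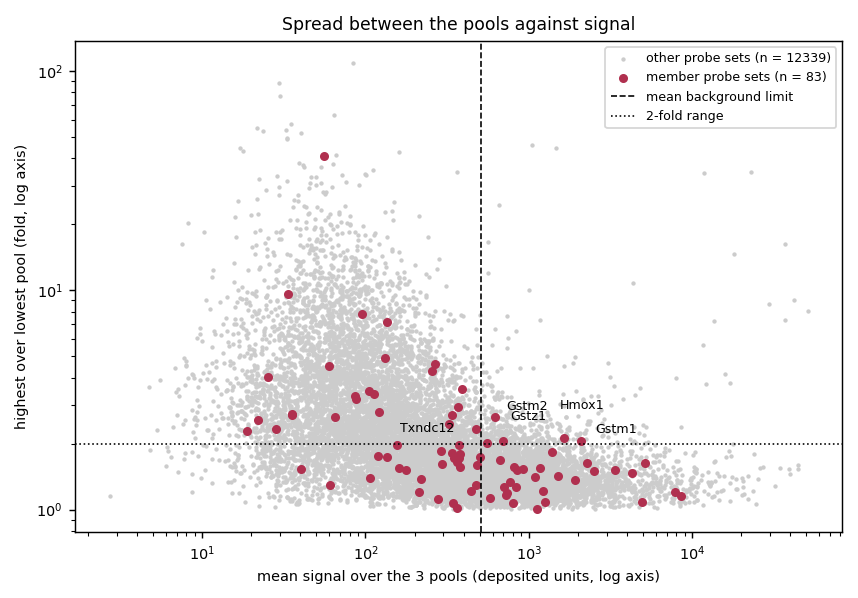
Highest over lowest pool against mean signal for each probe set, both on log axes, with the 83 members in red and all other sets in grey. To the right of the mean limit of 512.7 (dashed), 5 members lie above the 2-fold line (dotted) and are named, of which Gstm2 and Txndc12 are above background in pool 3 only, so that their bounds of 1.88-fold and 1.43-fold fall below the line.

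The spread between pools was measured on the probe sets whose mean signal exceeded the mean limit, 32 of 83 members (38.6%), beside 30.4% of all probe sets. With the longer list these were 42 of 83, beside 39% of all. Their median SD was 0.29 on the log2 scale and their median range 1.45-fold, beside 0.25 and 1.40-fold for all 3775 such probe sets. Of the 29 above background on all arrays, 3 had a range over 2-fold, Hmox1, Gstm1 and Gstz1, beside 6.37% of all such probe sets. Of the 32, 5 had one by their readings, beside 9.83% of all. The further sets were those of Gstm2 and Txndc12, which passed the mean limit through pool 3 alone and whose bounds stay below 2-fold. Median scaling left 3 of the 5 above 2-fold, with Gstz1 at 1.96-fold and Txndc12 at 1.93-fold. Leaving out pool 1 or pool 2 gave 3 such sets and leaving out pool 3 gave 0, where 2 arrays make ranges smaller by construction. Ranges were below 1.5-fold in 17 sets, among them Mgst3, Mt2, Txnrd3 and Gstm5. The 51 members below the mean limit had a median range of 1.98-fold, and all 8647 such probe sets one of 2.18-fold.

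**Figure D5:**
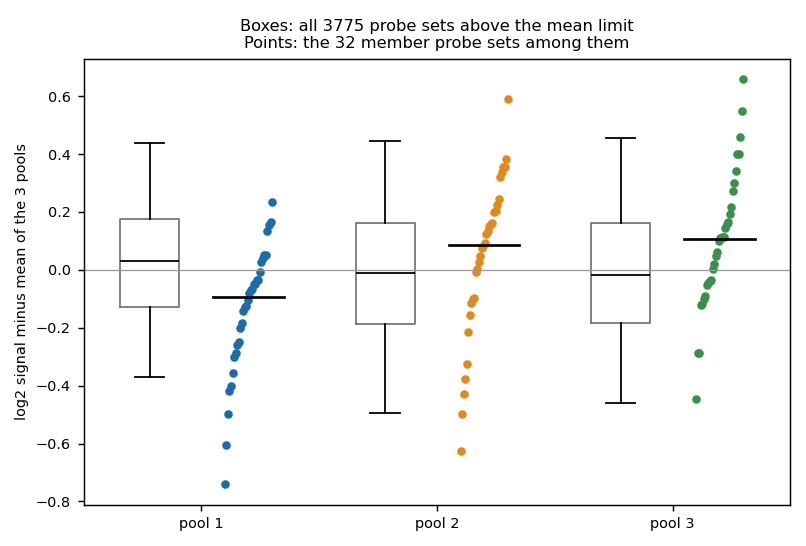
Log2 signal minus its mean over the 3 pools. Boxes hold the middle of all 3775 probe sets above the mean limit with whiskers from the 5th to the 95th percentile, points are the 32 members, and black bars are medians. The members' median is -0.093 in pool 1, 0.087 in pool 2 and 0.11 in pool 3, while the medians of all sets lie within 0.03 of 0.

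Members above the mean limit were more often lowest than highest in pool 1. Pool 1 was the lowest for 16 of the 32, beside 27.2% of all probe sets above the mean limit, and the highest for 2, beside 34.6%. The 2 were Mt2 and Txndc5. Pools 2 and 3 were each the highest for 15 members, beside 33% and 32.4% of all, and each the lowest for 8, beside 36.4% of all in both cases. The median of log2 signal minus the mean over pools was -0.093 in pool 1, beside 0.029 for all such probe sets. Scaling to a common median made pool 1 the lowest for 13 members, beside 20.1% of all, and the highest for 6, beside 43.5%. The members' median became -0.037, beside 0.085 for all such probe sets. Quantile normalization made pool 1 the lowest for 20, beside 30.6% of all, and the highest for 4, beside 30.9%. The members' median was then -0.12, beside 0.0041 for all. Gstm2 and Txndc12, which passed the mean limit through pool 3 alone, were both lowest in pool 1 and highest in pool 3. Of the 29 member sets above background on all arrays, pool 1 was the lowest for 14. These were 8 with pool 2 highest, beside 14.2% of all sets above background on all arrays, and 6 with pool 3 highest, beside 13.8%. Members lowest in pool 1 came from several roles, among them Txn1, Txn2, Prdx3, Sod1, Gpx4 and Mt3, and Mgst3 with a range of only 1.01-fold. The Actb control probe sets, whose ratio between the 3′ and 5′ ends of the transcript is a sign of RNA integrity, gave 1.20, 1.44 and 1.69 in pools 1, 2 and 3. The Gapdh ratios were 0.95, 0.88 and 0.93. Cone genes, with 3 of 3 probe sets lowest in pool 1, had medians of -0.31, 0.09 and 0.03 and rod genes of -0.16, -0.10 and 0.33. Müller glia genes had medians of -0.24, -0.26 and 0.35, amacrine and ganglion cell genes of -0.11, -0.30 and 0.32, and endothelial genes of -0.24, -0.11 and 0.36. Of the 11 endothelial and mural cell sets, 8 were above background on no array. Microglia genes had medians of -0.16, 0.11 and -0.03, with 0 of 19 sets above background on all arrays. Pigment epithelium genes had medians of -0.12, 0.37 and 0.17, with 8 of 10 sets above background on no array. Fibroblast and matrix genes had medians of 0.04, -0.04 and 0.14, with 7 of 10 sets above it on none. The part of these cell types in the members' pattern was not tested.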

How the data were processed

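Total RNA of mouse retina was measured on Affymetrix U74Av2 arrays, named in the sample titles. The deposited table gives a linear intensity for 12488 probe sets per array, 66 of them controls. How the authors condensed, corrected and scaled it is not stated in the labels or the table. Trimmed by 2% at each end, the arrays had means of 500.2 or 500.3, and values were used as deposited.

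Symbols came from GEO's platform annotation, in which 10855 probe sets have 1 symbol, 396 several and 1237 none. All 83 member sets matched a RefSeq gene by Entrez number, with the same symbol. Values below 1 were set to 1 before log2. Where the lowest pool was not above background, the range is a bound against that array's limit. A member gene is represented by its brightest set, and a listed related or marker gene by the set that passed on the most arrays. All member genes are named, and related genes and cell type markers follow lists. The rule for members uses symbols only, but it and the lists were set with earlier results of these data known.

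Alternatives were other limits, median scaling, quantile normalization, other thresholds, plain probe sets and leaving out each pool. Promoter windows came from RefSeq, GRCm38.p6. Python 3.11.15 and pandas 2.3.3 were used, and the calculation was tested on simulated data. Only 3 arrays limit the precision.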

Additional observations from a re-analysis of the deposited data

How the results depend on the processing

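No paired analysis was possible because there is 1 group. The count of 29 member probe sets above background on all arrays became 45 (42.8% of all probe sets passed) with the limit at the 75th percentile of the same probe sets and was 29 to 31 when each pool was left out. The count of 25 member genes became 39 with that limit and was 25 to 27 without single pools. The 95th percentile, the longer background list, both scalings, plain probe sets, updated symbols and averaged probe sets kept these counts within 1.5 times. The median SD of 0.29 became 0.40 over all members and 0.18 to 0.24 without single pools. The number with a range over 2-fold, 5, became 3 with median scaling, 3 among members above background on all arrays, 15 with a threshold of 1.5-fold and 0 to 3 without single pools. The median shift ranged from -0.082 to -0.047 in pool 1, from 0.014 to 0.082 in pool 2 and from -0.014 to 0.047 in pool 3 when another pool was left out. Some of these changes follow from construction. A lower limit, or fewer arrays to pass, can only keep or raise the count of probe sets. With 2 arrays the range and SD tend to be smaller. The shifts of 2 remaining pools are equal and opposite, so the ranges given for the 3 pools are not independent. The cause of the other changes was not tested. Of the 32 single probe sets above the mean limit, 28 kept their log2 range within 1 SD with median scaling and 27 with quantile normalization. Dim members are limited by the background limit, which rests on 27 probe sets.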
